A study of Mus musculus with 12 samples.

Results

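Cpt1a, Cpt2, Slc25a20, Crat and Slc22a5, the genes of the carnitine shuttle, were followed in mouse CD4 and CD8 T cells after culture with or without linoleic acid. The 5 were found by symbol among 22180 named genes of the array, on 6 probe sets that carry a single symbol, and all 5 passed the filter that left 14323 genes for testing. Crat had 2 probe sets, and the one with the higher mean over the 12 arrays stood for it. The series asks whether these 2 T cell types differ in their response to linoleic acid, the main omega-6 fatty acid of food. Unsorted mouse splenocytes spent 24 h in culture, either with linoleic acid at 50 µM or as controls, after which CD4+ or CD8+ T cells were sorted and the total RNA of each sort was run on 1 Affymetrix MoGene-2_0-st array. The 4 groups of 3 arrays were CD4 T cells from control culture, CD4 T cells from linoleic acid culture, and CD8 T cells from each of these cultures. Every group thus shared the culture of unsorted spleen cells, so other spleen cells were present while the fatty acid was. The labels used here give no genotype, strain, age or sex, and do not say what separates replicates (another animal, another culture), and the spread between arrays, on which every p-value here rests, may be no more than technical.

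Long-chain fatty acids cannot cross the inner mitochondrial membrane as coenzyme A esters, and the carnitine shuttle carries them across. Slc22a5 encodes OCTN2, the plasma membrane carrier that brings carnitine into the cell. Cpt1a encodes the outer membrane carnitine palmitoyltransferase that joins the acyl chain to carnitine, the step inhibited by malonyl-CoA, and Slc25a20 the carrier that exchanges acylcarnitine for carnitine across the inner membrane. Cpt2 encodes the enzyme on the inner membrane that gives the acyl group back to coenzyme A, and Crat the carnitine acetyltransferase that handles acetyl and other short groups. Fatty acids are ligands of the PPAR nuclear receptors, of which Cpt1a is a textbook target gene, and T cells use fatty acid oxidation mainly in the resting, memory and regulatory states.

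The 250 bases before the annotated start are shown for Cpt1a, the member with the largest linoleic acid difference, and for Slc25a20, the member whose profile over the arrays was most like it. The windows come from RefSeq on build GRCm38.p6, which held entries for 4 of the 5 members. The Cpt1a window is chr19:3323051-3323300 on the plus strand and the Slc25a20 window chr9:108661886-108662135 on the plus strand, both written 5′ to 3′, with capitals marking matches to AGGTCA (the half-site of many nuclear receptors), GGGCGG (the GC box) or CCAAT on either strand.
Cpt1a: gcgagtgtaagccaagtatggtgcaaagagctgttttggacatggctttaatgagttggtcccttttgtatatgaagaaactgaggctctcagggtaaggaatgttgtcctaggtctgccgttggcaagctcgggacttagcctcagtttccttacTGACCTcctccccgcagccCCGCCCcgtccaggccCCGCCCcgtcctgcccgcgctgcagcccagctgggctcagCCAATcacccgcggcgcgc
Slc25a20: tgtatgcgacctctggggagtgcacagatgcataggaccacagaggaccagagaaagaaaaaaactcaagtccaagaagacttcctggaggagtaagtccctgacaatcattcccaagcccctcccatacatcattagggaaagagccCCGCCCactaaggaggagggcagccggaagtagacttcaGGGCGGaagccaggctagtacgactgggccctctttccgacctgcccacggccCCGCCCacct

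The Cpt1a window held AGGTCA once, on the minus strand with its leftmost base 94 bases before the start. That motif was found on either strand in 14.02% of the 32851 RefSeq windows of this length. The GC box stood at 75 and 59 bases before the start of Cpt1a, CCAAT at 19, and the GC box at 102, 63 and 10 bases before the start of Slc25a20. These motifs were found in 32.7% (GC box) and 33.8% (CCAAT) of all windows. The full direct repeat bound by PPAR with its partner RXR, searched as AGGTCANAGGTCA, which contains the half-site, was found in 0.0335% of windows and in none of the 4 member windows, and likewise the E-box CACGTG (6.02% of windows) and TATAAA (12.4%). The matches printed in capitals do not overlap one another. A match is a description of letters in this window and was not tested as a binding site.

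Values are log2 RMA intensities, a scale on which a difference of 1 is a doubling. Medians of the arrays ran from 4.66 to 4.80, and any pair of arrays correlated at 0.946 to 0.984. The sort labels held in the data, with group means of Cd4 at 10.92 and 10.95 in CD4 arrays against 6.04 and 5.76 in CD8 arrays, and of Cd8a at 5.999 and 6.205 against 11.23 and 11.06. Cd3e, the T cell receptor chain gene shared by both, had group means of 11.41 to 11.66. The main axis of variation, with 33.2% of the variance, ran with the replicate number, from -23.7 to -14.8 for arrays numbered 1 up to 5.42 to 36.1 for those numbered 3. CD8 linoleic acid replicate 3 lay at its far end and, with CD4 control replicate 1 at the other, gave the lowest correlation between arrays. In bulk RNA, fewer cells of a type and less RNA per cell cannot be told apart. Levels of different probe sets are not compared with each other here. A gauge of background was taken from 1394 olfactory and vomeronasal receptor genes, whose 95th percentile was log2 5.11. The probe sets used for the 5 members lay above it, with means over the 12 arrays of 5.98 to 7.30, and the second Crat probe set lay below it at 4.95.

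Cpt1a mRNA was higher with linoleic acid in every same-numbered pair of arrays, in both cell types. In CD4 control arrays Cpt1a stood at log2 6.99, 6.40 and 6.62 for replicates 1, 2 and 3, and in CD4 linoleic acid arrays at 8.34, 7.96 and 7.71. CD8 control arrays gave 6.88, 6.88 and 6.69, and CD8 linoleic acid arrays 8.19, 7.80 and 7.17. The lowest of the 6 linoleic acid values, CD8 replicate 3 at 7.17, lay above the highest of the 6 control values, CD4 replicate 1 at 6.99, so the cultures did not overlap. In 10 of 14323 genes (0.0698%) all linoleic acid arrays lay above all control arrays, and 1.68% of genes were higher in all 6 pairs. In CD4 T cells alone 2.92% of genes lay wholly above control, and in CD8 T cells 3.32%. The arrays numbered 1 were the highest in each group, and Cpt1a had the widest spread of the members, with a pooled SD within groups of 0.34 on the log2 scale.

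**Figure D1:**
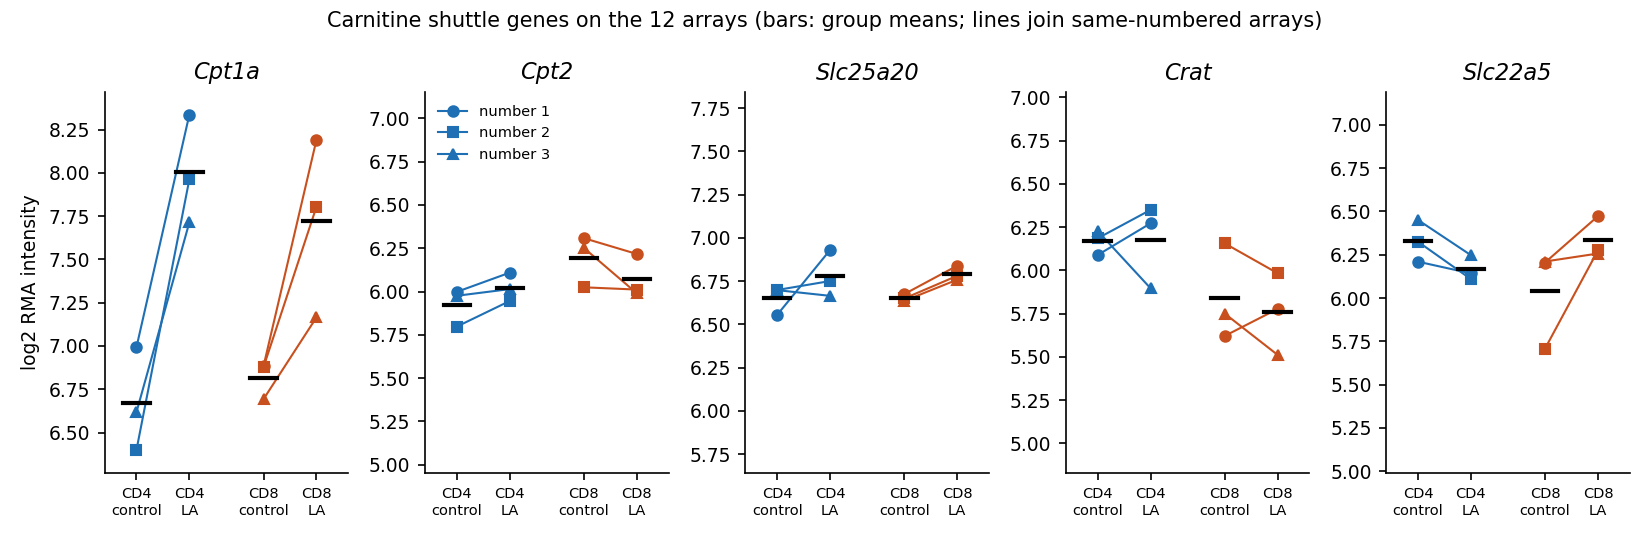
Log2 RMA intensity of each carnitine shuttle gene (vertical axis, each panel spans the same 2.2 log2 units) on the 12 arrays, by group (horizontal axis; LA, linoleic acid). Symbols give the replicate number, lines join same-numbered arrays of a cell type and black bars are means of 3 arrays; only Cpt1a has its control and linoleic acid arrays apart in both cell types.

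As a fold, same-numbered CD4 arrays differed 2.54, 2.96 and 2.14 times in Cpt1a, and CD8 arrays 2.48, 1.90 and 1.39 times. The smallest of these folds belongs to CD8 replicate 3, the array at the end of the main axis. The mean of CD4 T cells was 8.01 ± 0.31 (SD, n = 3) after linoleic acid against 6.67 ± 0.30 for controls, a log2 difference of 1.34 ± 0.23 (SE). For CD8 T cells it was 7.72 ± 0.52 against 6.82 ± 0.11, a difference of 0.90 ± 0.23. Averaged over both cell types the difference was 1.12 ± 0.17, or 2.17-fold, with a 95% interval of 0.76 to 1.47. Among the 14323 genes the CD4 difference in Cpt1a ranked 1 by size and 1 by p, the CD8 difference 23 by size and 12 by p, and the average 2 by size and 1 by p.

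Whether Cpt1a passed the test depended on the pairing of arrays, on the scaling and on which arrays were kept. In limma without a block, 0 of 14323 genes (0% called) passed an adjusted p of 0.05 in CD4, in CD8 or in the average, and Cpt1a had adjusted p of 0.845, 0.757 and 0.147. Without adjustment 1 of 5 members, Cpt1a, had p under 0.05 in each of these contrasts, against 2.6%, 5.08% and 4.84% of all genes. Deviations from the group mean correlated at 0.61, 0.19 and 0.32 between same-numbered CD4 arrays and at 0.43, 0.19 and 0.42 between same-numbered CD8 arrays, so the numbers were taken to pair control with linoleic acid arrays. With the replicate number as a block, 1 term per number over all 4 groups, Cpt1a rose in CD4 T cells (limma adjusted p = 0.00335; 1 gene called, 0.00698%) and in the average of both (adjusted p = 0.000348; 26 genes called, 0.182%). In CD8 T cells it had a blocked adjusted p of 0.0507, where the 1 gene called (0.00698%) was 1700091H14Rik, named after its value was seen. Blocked and unadjusted, 1, 2 and 1 members had a limma p under 0.05 in CD4, CD8 and the average, against 804, 1927 and 1396 genes. Under quantile normalization without a block these were 1, 3 and 2 members, against 457, 581 and 616 genes. With all 4 arrays of a number left out, the blocked average had adjusted p of 0.024 (without number 1), 0.0012 (without 2) and 0.00251 (without 3). The blocked CD4 call ended without number 1 (0.0532). Without CD8 linoleic acid replicate 3 the average passed with no block (log2 1.26, limma adjusted p = 0.0092).

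An exact two-sided permutation test of the average Cpt1a difference, over 400 relabellings of arrays within both cell types, gave p = 0.005, the smallest they can give. An exact permutation that swapped labels only within the 6 same-numbered pairs gave p = 0.03125 over 64 relabellings, again the smallest possible. Both values follow from the separation of the Cpt1a arrays given above. They are not adjusted for the number of genes, and the members were chosen with earlier results of these data known. Within CD4 or CD8 T cells alone 3 against 3 arrays cannot give an exact permutation p below 0.1, and both gave 0.1. These tests were run for the 5 members in 6 contrasts with 2 schemes. Of the 26 genes of the blocked average, 9 were olfactory or vomeronasal receptor genes, of the class used to gauge background. By mean 22 of the 26 lay at or above the gauge and 4 below it. Among all 14323 tested genes 4495 lay below the gauge. Of the 26 genes 18 belonged to classes that were not named here, such as predicted genes and small RNAs. The share of olfactory and vomeronasal receptor genes among all tested genes was not counted.

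**Figure D2:**
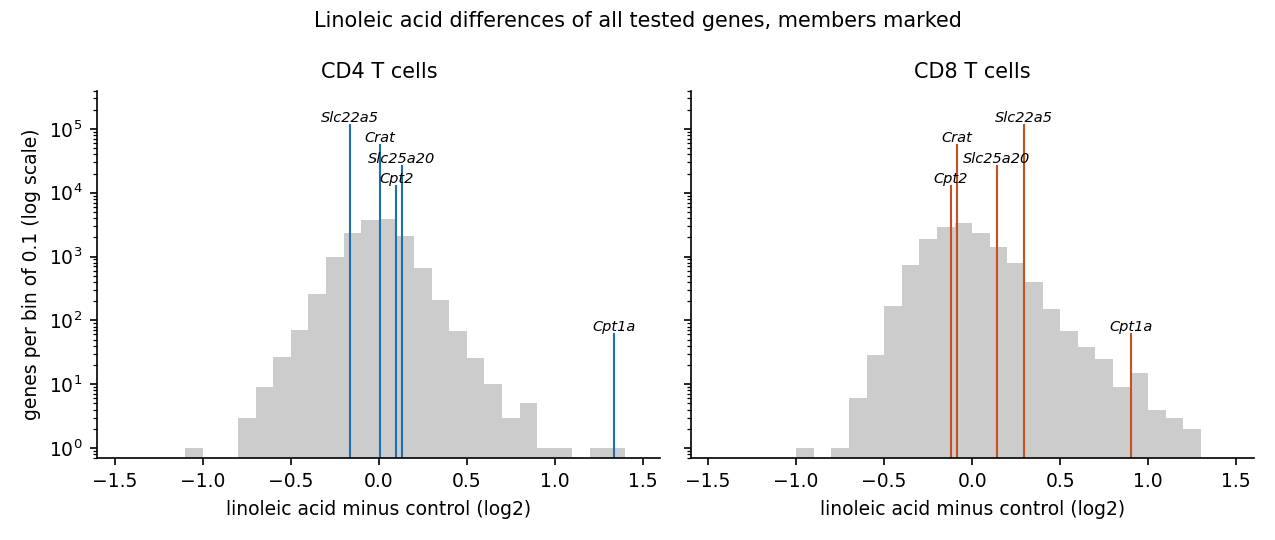
Number of tested genes (vertical log axis) by their linoleic acid difference in bins of 0.1 log2 (horizontal axis), for CD4 T cells (left) and CD8 T cells (right), with the 5 members marked by lines whose heights carry no value. Cpt1a lies at 1.34 and 0.90, and the other members between -0.16 and 0.29, where most genes lie.

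The response of Cpt1a was compared between the cell types, which is the question of the series. The CD4 difference exceeded the CD8 difference by 0.43 ± 0.33 (SE, log2), with a 95% interval of -0.28 to 1.15. This did not pass in limma (adjusted p = 0.953, and 0.607 with the block), where 0 of 14323 genes passed (0% called) and 336 had an unadjusted p under 0.05. The exact two-sided permutation p over 400 relabellings was 0.61. The value was 0.16 without CD8 linoleic acid replicate 3, and 0.67 without CD8 linoleic acid replicate 1. By group mean the order was CD4 linoleic acid, CD8 linoleic acid, CD8 control and CD4 control. In control culture CD8 minus CD4 was 0.15 ± 0.23 and in linoleic acid culture -0.29 ± 0.23, and neither pair of neighbours differed beyond its spread (limma adjusted p = 0.947 and 0.699). CD8 linoleic acid arrays were below their CD4 partners in 3 of 3 pairs, by 0.15, 0.16 and 0.55, as were 24.9% of all genes, and without CD8 linoleic acid replicate 3 the difference was -0.0076.

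Slc25a20, the inner membrane carrier, was the member whose profile was nearest to Cpt1a, with far smaller differences. CD4 control arrays gave log2 6.56, 6.70 and 6.70 and CD4 linoleic acid arrays 6.93, 6.75 and 6.66. In CD8 T cells the values were 6.67, 6.65 and 6.64 in control and 6.84, 6.78 and 6.76 in linoleic acid culture. The CD8 groups did not overlap, like those of 3.32% of genes, while the CD4 groups overlapped. It was higher with linoleic acid in 5 of 6 pairs, all except CD4 replicate 3, and the CD8 pairs differed by 0.16, 0.13 and 0.12. The differences were 0.13 ± 0.11 (SE) in CD4, 0.14 ± 0.11 in CD8 and 0.14 ± 0.08 in the average (limma adjusted p = 1, 0.757 and 0.925), with a 95% interval of -0.03 to 0.30 for the average. An exact permutation test of that average gave p = 0.015 over any relabelling and 0.0625 with swaps within pairs. This gene had the smallest spread within groups, with a pooled SD of 0.08.

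Cpt2, which reverses the Cpt1a reaction inside the mitochondrion, did not follow Cpt1a. In CD4 T cells its log2 values were 5.998, 5.80 and 5.98 in control culture and 6.11, 5.95 and 6.01 with linoleic acid. In CD8 T cells they were 6.31, 6.02 and 6.25 in control culture and 6.22, 6.01 and 5.99 with linoleic acid. With linoleic acid the CD4 pairs were higher by 0.11, 0.15 and 0.04, as 13.5% of genes were in all 3, and the CD8 pairs lower by 0.09, 0.01 and 0.26, as 21.5% were. In both cell types the groups overlapped. The average over both was -0.01 ± 0.09 (SE), with a 95% interval of -0.20 to 0.17 (limma adjusted p = 0.986). In control culture the 3 CD8 arrays lay above the 3 CD4 arrays, by 0.27 ± 0.12 in the means, as they did for 8.52% of genes (19.2% were higher in all 3 pairs), and this did not pass (limma adjusted p = 0.492). In linoleic acid culture the CD8 and CD4 arrays overlapped, with a difference of 0.05 ± 0.12 (adjusted p = 0.914).

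Crat, the short-chain carnitine acyltransferase, had lower values in CD8 than in CD4 arrays and small differences between cultures. CD4 arrays gave log2 6.09, 6.18 and 6.23 in control and 6.27, 6.35 and 5.90 in linoleic acid culture. CD8 arrays gave 5.62, 6.16 and 5.75 in control and 5.78, 5.98 and 5.51 in linoleic acid culture. CD8 T cells were lower in 6 of 6 same-numbered pairs, as were 7.5% of all genes, although the groups overlapped in each culture. CD8 minus CD4 was -0.32 ± 0.17 (SE) in control and -0.42 ± 0.17 in linoleic acid culture, neither past the threshold in limma (adjusted p = 0.613 and 0.335, and 0.0873 in linoleic acid culture with the block). The linoleic acid differences were 0.01 ± 0.17 in CD4, where the sign turned under other scalings, and -0.09 ± 0.17 in CD8. The second Crat probe set, under the background gauge, had group means of 4.99 and 4.96 in CD4 and 4.98 and 4.89 in CD8 arrays, and its correlation with the first over the 12 arrays was 0.13.

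Slc22a5, the carnitine importer, lay on opposite sides of control in the 2 cell types. CD4 arrays gave log2 6.21, 6.33 and 6.45 in control and 6.14, 6.11 and 6.25 with linoleic acid, lower in 3 of 3 pairs by 0.07, 0.22 and 0.20, as 14.1% of genes were. CD8 arrays gave 6.21, 5.71 and 6.21 in control and 6.47, 6.28 and 6.26 with linoleic acid, higher in 3 of 3 pairs by 0.27, 0.57 and 0.05, as 10.3% were. The CD8 linoleic acid arrays lay wholly above control, like those of 3.32% of genes, while the CD4 groups overlapped. Such opposite directions in all 6 pairs were found in 4.7% of genes. The differences were -0.16 ± 0.14 (SE) in CD4 and 0.29 ± 0.14 in CD8 (limma adjusted p = 1 and 0.757). The CD4 difference minus the CD8 difference was -0.46 ± 0.20, with a 95% interval of -0.89 to -0.02, an unadjusted limma p of 0.0412 and an adjusted p of 0.953, so it did not pass. Of all genes 2.35% had an unadjusted p under 0.05 in that contrast. The widest pair rests on CD8 control replicate 2 at 5.71, the lowest Slc22a5 value. Without that array the difference between the effects was -0.29. In linoleic acid culture the CD8 arrays lay above the CD4 arrays without overlap, by 0.17 ± 0.14 (adjusted p = 0.71), and 6.31% of genes did so.

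**Figure D3:**
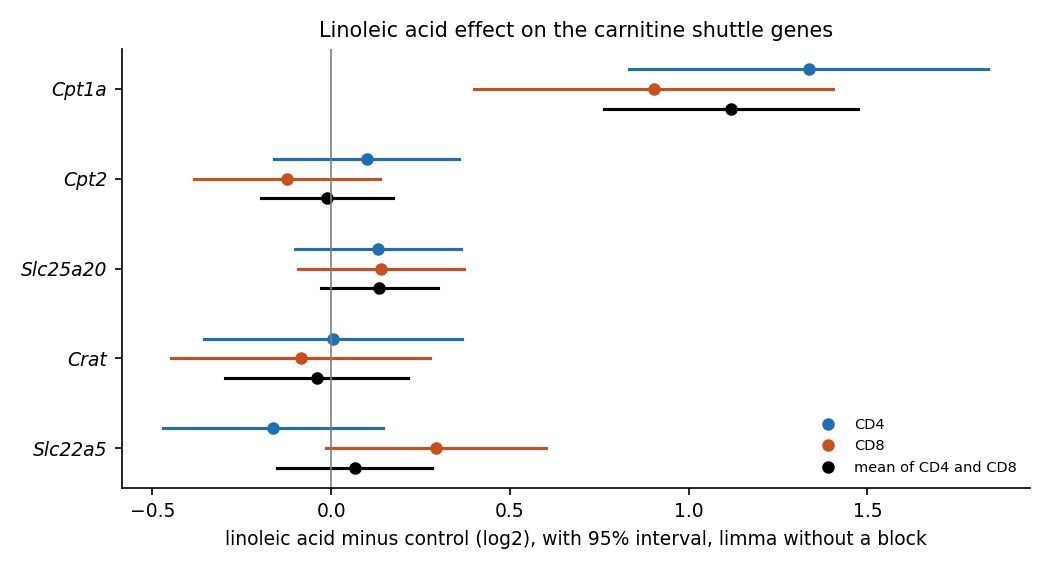
Linoleic acid minus control in log2 units (horizontal axis) for each carnitine shuttle gene (vertical axis), in CD4 T cells, in CD8 T cells and as their mean, with 95% intervals from limma on all 12 arrays without a block. The intervals of Cpt1a lie above 0, and every interval of the other 4 genes includes 0.

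Between cell types, 0 of 5 members passed in control culture, where 1.95% of genes were called by limma, and 0 of 5 in linoleic acid culture, where 2.03% were called. With an unadjusted p under 0.05 there was 1 member in each, Cpt2 in control and Crat in linoleic acid culture, against 9.37% and 11.8% of genes. In linoleic acid culture the count with the block was again 0 of 5, against 5.57% of genes. In control culture with the block it was also 0 of 5, against 630 of 14323 genes. With the block and an unadjusted limma p under 0.05 there were 3 members in control culture, against 2079 genes. In linoleic acid culture there was 1 member, against 2732 genes.

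Likeness to Cpt1a was measured by Pearson correlation of log2 values over the 12 arrays among 9827 other genes above the background gauge, as a description of arrays that share cultures and replicate numbers. Slc25a20 ranked 8 of 9827 with r = 0.73, while Cpt2 had 0.18, Crat 0.11 and Slc22a5 0.06. The 5 nearest named genes were Nfkbiz (r = 0.88), which encodes a nuclear IκB protein, Zhx3 (0.87), Zfp800 (0.78), the DNA polymerase gene Poll (0.75) and the transcription factor gene Klf6 (0.73). After the mean of each same-numbered pair was removed, the nearest were Nfkbiz (0.93), the B cell transcription factor gene Ebf1 (0.93), Irak2 (0.92), a kinase of interleukin-1 and Toll-like receptor signalling, Slc37a2 (0.92) and Zhx3 (0.91), and Slc25a20 ranked 172 (0.73). Nfkbiz itself was higher with linoleic acid by 0.38 in CD4 and 0.15 in CD8, in 6 of 6 pairs. Among the other members the widest correlation was -0.56, between Cpt2 and Crat, and it was 0.46 after pair means were removed.

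The genes around the shuttle were described in 6 lists of 80 genes, of which 71 were on named probe sets and 55 passed the filter. In limma 0 of these 55 passed in CD4, in CD8 or in the average, with or without the block, and in the average 1 higher and 1 lower had an unadjusted p under 0.05 without the block. In the average 15 lay above 0 and 40 below, where the median of all genes was -0.04. Of the other carnitine genes 0 of 6 lay above 0 in the average, with a median of -0.10. Aldh9a1 and Tmlhe, enzymes of carnitine synthesis, stood at -0.17 ± 0.10 (SE) and -0.19 ± 0.12, lower in 6 of 6 pairs, and the brain isoform Cpt1c, below the background gauge, at -0.12 ± 0.11. Being lower in all 6 pairs was found in 3.03% of genes.

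Mitochondrial beta-oxidation enzymes, which act on what the shuttle delivers, had 6 of 20 above 0 in the average and a median of -0.06. Eci2, Echs1 and Hadhb, an isomerase, a hydratase and a thiolase subunit of the cycle, stood at -0.19 ± 0.11 (SE), -0.17 ± 0.10 and -0.16 ± 0.10. The malonyl-CoA list, with the carboxylase genes, the decarboxylase and AMP-activated kinase subunits, had a median of -0.03 over 7 genes, with the kinase subunit genes Prkab2 at 0.15 ± 0.08 and Prkaa1 at 0.06 ± 0.09 and the carboxylase Acaca at -0.05 ± 0.09. Genes that activate or bind acyl chains had a median of -0.09 over 7, with the acyl-CoA binding protein gene Dbi at -0.19 ± 0.09 and the fatty acid transport protein Slc27a1, below the background gauge, at -0.19 ± 0.10, each lower in 6 of 6 pairs, and the synthetase Acsl5 at -0.14 ± 0.10. None of these differences passed in limma (adjusted p of 0.925 to 0.947).

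PPAR targets other than Cpt1a had 4 of 9 above 0 in the average and medians of -0.04 in CD4 and 0.15 in CD8, against -0.0047 and -0.057 for all genes. Plin2, which coats lipid droplets, was the nearest to passing. Its log2 mean was 5.64 ± 0.07 (SD, n = 3) and 5.80 ± 0.14 in CD4 T cells without and with the fatty acid, and 5.34 ± 0.15 and 5.72 ± 0.29 in CD8 T cells, higher in 6 of 6 pairs, as were 1.68% of genes. Its average difference of 0.27 ± 0.10 (SE) did not pass in limma (adjusted p = 0.925, and 0.305 with the block). Fgf21 and Pdk4, both under the background gauge, stood at 0.16 ± 0.10 and 0.15 ± 0.13. Of the receptors and co-regulators 1 of 6 lay above 0, and the co-activator Ppargc1b was at -0.23 ± 0.09, with CD8 means of 5.96 in control and 5.53 with linoleic acid and CD4 means of 5.599 and 5.57 (adjusted p = 0.925). The co-repressor Nrip1 and Rxrb, a partner of the PPARs, stood at -0.18 ± 0.15 and -0.11 ± 0.09. Between cell types 2 of the 55 passed without the block, both in linoleic acid culture, where limma called 2.03% of all genes. These 2 were named after their values were seen. Nrip1 was lower in CD8 T cells by 0.92 (limma adjusted p = 0.0417), and Angptl4, a secreted lipase inhibitor, was higher by 0.52 (0.0349).

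**Figure D4:**
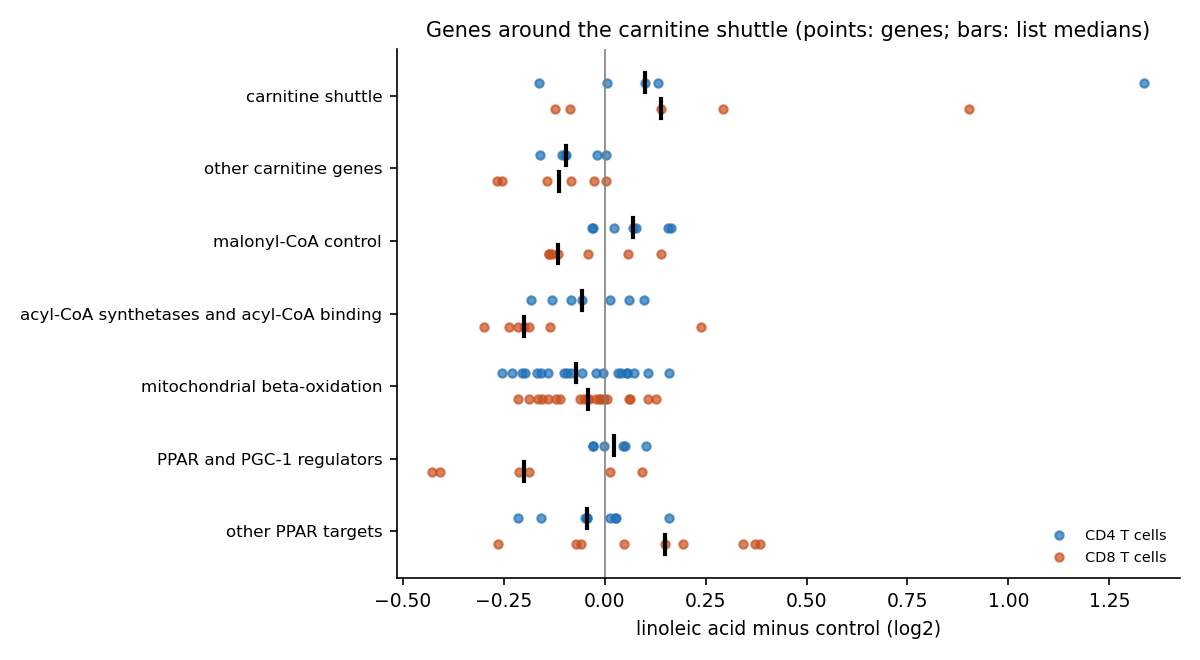
Linoleic acid minus control in log2 units (horizontal axis) for each tested gene (points) of the carnitine shuttle and 6 surrounding lists (vertical axis), in CD4 and CD8 T cells, with list medians as black bars. Cpt1a is the right-hand point in each cell type, at 1.34 and 0.90, and the tested genes of the 6 other lists lie between -0.43 and 0.39.

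RNA of other spleen cells was present in the sorts and varied by replicate number. Of 15 B cell markers 13 were tested, and their mean ran from 5.79 to 6.25 in the arrays numbered 1 and from 7.01 to 7.63 in those numbered 2 and 3, with Cd79a, a chain of the B cell receptor complex, at 9.76 and 9.29 in CD4 and CD8 control means. By group this list mean ran from 6.22 to 7.46 and 6.25 to 7.63 in CD4 T cells without and with linoleic acid, and from 5.79 to 7.11 and 5.79 to 7.14 in CD8 T cells. Between same-numbered arrays it differed with linoleic acid by 0.03, 0.16 and 0.26 in CD4 and by -0.00, 0.13 and 0.02 in CD8. In the average 11 of 13 lay above 0, with a median of 0.10 and 0 past the threshold in limma with or without the block (3 and 0 with an unadjusted p under 0.05). In the same order Cpt1a differed by 1.34, 1.57 and 1.098 in CD4 and by 1.31, 0.93 and 0.47 in CD8. The part of B cell RNA in the members' values was not tested.

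Of the other marker lists, 10 of 13 tested myeloid markers lay above 0 in the average (median 0.14, where that of all genes was -0.04). With the block 0 passed the threshold in limma and 6 had an unadjusted p under 0.05, against 1396 of 14323 genes. Only 7 of the 14 measured myeloid markers lay above the background gauge. Among these 7, Ly6c2 had control means of 8.05 in CD4 and 10.32 in CD8 arrays, so the list is a weak gauge of myeloid RNA. The mean of the 14 measured markers ran from 5.19 to 5.68 and 5.14 to 5.76 in CD4 T cells without and with linoleic acid, and from 5.23 to 5.66 and 5.24 to 5.97 in CD8 T cells. It differed between same-numbered arrays by -0.05, 0.11 and -0.01 in CD4 and 0.01, 0.22 and 0.30 in CD8. The part of myeloid RNA in the members' values was not tested. All 8 tested T cell markers lay below 0 in the average, with a median of -0.07, none past the threshold and 0 with an unadjusted p under 0.05. All 8 lay above the background gauge, and genes tested above that gauge had a median of -0.06, against -0.04 for all tested genes.

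**Figure D5:**
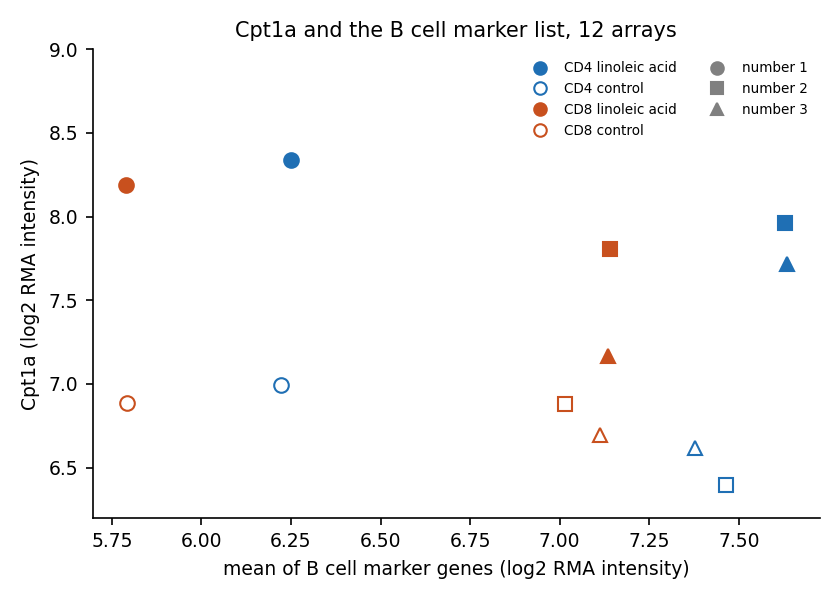
Cpt1a (vertical axis, log2 RMA intensity) against the mean of the measured B cell marker genes (horizontal axis, log2 RMA intensity) on the 12 arrays, coloured by cell type, filled for linoleic acid and open for control, with symbols for the replicate number. Arrays numbered 1 lie at the left, at 5.79 to 6.25, and at each number the linoleic acid arrays lie above the control arrays.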

How the data were processed

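The deposited values are log2 intensities of 41345 probe sets on 12 single-colour arrays, 300 ng of total RNA each per the labels' protocols. RMA, per the submitters' processing notes, made the values by background correction, quantile normalization and a summary over probes; the sources used here do not give its software or a genome build. Values were used as deposited. Platform annotation gave 1 symbol to 23521 probe sets, several to 1814 and none to 16010; 0 symbols differed from RefSeq. The brightest probe set stood for a gene, and genes with a mean under the 40th percentile of probe set means (log2 4.28) were left out. Contrasts of the 4 group means were fitted with limma 3.58.1 (R 4.3.3; lmFit, eBayes, two-sided) on the 12 arrays together (degrees of freedom: residual 8, prior 5.67), with Benjamini-Hochberg adjustment over 14323 genes. The fit was tested on simulated data. The number of arrays limits the precision. Same-numbered CD4 and CD8 arrays correlated in their deviations at 0.54, -0.01 and 0.42 in control and at 0.58, 0.26 and 0.52 in linoleic acid culture. With -0.01 at number 2, the numbers were not taken to pair the control arrays of the cell types. Counts of same-numbered pairs between cell types are thus descriptions only. The replicate block, 1 term per number over all 4 groups, still ties CD4 to CD8 arrays. A block of same-numbered pairs within a cell type does not.

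Genes named were the members, the 3 genes with the smallest p of each surrounding list in the average linoleic acid contrast, and the 5 genes most like Cpt1a by either measure; predicted genes, receptor segments and small RNAs were not named by this rule. Marker genes that check the sorts were named too, and Angptl4, 1700091H14Rik and the cell type difference of Nrip1 were singled out after their values were seen. Members and lists were chosen with earlier results of these data known. Motif letters were chosen after the data were seen.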

Additional observations from a re-analysis of the deposited data

Results flagged for a closer look

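For Cpt2 and Slc22a5 every same-numbered CD4 pair moved one way with linoleic acid and every CD8 pair the other, a pattern that 4.7% of the 14323 tested genes also had. The CD4 minus CD8 difference between the effects was 0.22 for Cpt2 (limma unadjusted p = 0.217, adjusted p = 0.953). For Slc22a5 it was -0.46 (unadjusted p = 0.0412, adjusted p = 0.953). Neither difference passed. With labels swapped only within pairs, the exact two-sided permutation p was 0.03125 for each, the smallest that 64 relabellings can give. Every gene with this pattern of pairs gets that p, so it adds nothing to the flag. Over any relabelling the exact permutation p was 0.115 for Cpt2 and 0.01 for Slc22a5.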

How the results depend on the processing

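In limma Cpt1a kept its direction with linoleic acid in CD4, in CD8 and in the average under all settings tried, and the 4 other members passed the threshold in 0 of 560 combinations of member, contrast and setting. The replicate block took the genes called from 0 to 1 in CD4, 0 to 1 in CD8 and 0 to 26 in the average, from 280 to 630 between cell types in control and from 291 to 798 in linoleic acid culture; members called went from 0 to 1 in CD4 and in the average, with Cpt1a at 1.34 and 1.12. A block of same-numbered pairs within a cell type, chosen after seeing the data, gave 1, 2 and 48 genes, 1 member in CD4 and 1 in the average, and the same Cpt1a values (adjusted p = 0.00273 and 0.000279, and 0.0555 in CD8). Quantile normalization called 1 gene in the average, Cpt1a at 1.16 (adjusted p = 0.0421). Fitting only the linoleic acid arrays gave 138 genes between cell types. Without 1 array or 1 number, the genes called ran from 0 to 5 in CD4, 0 to 6 in CD8, 0 to 43 in the average, 65 to 389 and 62 to 454 between cell types in control and linoleic acid culture, where both lowest counts were without number 2. Members called ran from 0 to 1 in CD4 and in the average. Cpt1a ran from 1.17 to 1.498 in CD4, 0.67 to 1.18 in CD8, 1.002 to 1.29 in the average, and -0.017 to 0.31 for CD8 minus CD4 in control culture. Over all settings its limma adjusted p ran from 0.00273 to 1 in CD4, 0.0507 to 1 in CD8 and 0.000279 to 0.995 in the average.

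Small differences turned sign in 55 of the 560 combinations, 48 of them by leaving arrays out. For Crat these ranges were -0.083 to 0.17 in CD4, -0.21 to 0.072 in CD8, -0.14 to 0.083 in the average and -0.066 to 0.23 for CD4 minus CD8. Cpt2 ran from -0.054 to 0.039 in the average and -0.022 to 0.093 between cell types in linoleic acid culture, and Slc22a5 from -0.018 to 0.14 in the average. Slc25a20 ran from -0.12 to 0.066 for CD4 minus CD8, and from -0.056 to 0.035 and -0.048 to 0.085 between cell types in control and linoleic acid culture. Median centring turned Crat in CD4 to -0.0051, Slc25a20 to 0.036 for CD4 minus CD8 and to -0.019 between cell types in linoleic acid culture. Quantile normalization turned Crat in CD4 to -0.0070, Cpt2 in the average to 0.014 and Slc25a20 between cell types in control culture to -0.031. The mean of both Crat probe sets gave -0.017 in CD4. The cause of these changes was not tested.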
